A study of Mus musculus with 9 samples.

Results

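Medial prefrontal cortex of stressed, vehicle-treated mice (SA:ANH-vehicle) was compared with that of non-stressed mice (NS) across all genes. Taken as single genes, the groups differed little: only the haemoglobin genes Hbb-b1 and Hbb-bs passed an adjusted p of 0.05, which is 0.0132% of the genes tested. Below that threshold, 17 of 18 genes of cholesterol synthesis were lower in SA:ANH-vehicle, by a median of 16.5%, while clock output genes, chaperones of the endoplasmic reticulum and SR splicing factors were mostly higher. The comparison holds 6 of the 9 samples of the series, 3 in each group, chosen by their group labels, and 15144 of 36172 table features could be tested.

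RNA was sequenced from medial prefrontal cortex, a frontal region involved in social and emotional behaviour, of the inbred mouse strain DBA2/J. NS mice had no defeat and received saline. SA:ANH-vehicle mice went through 5 days of social defeat stress, labelled smSDS, belonged to a subtype labelled SA:ANH, and received saline, which the series' design text calls vehicle in both groups. The sources used here do not spell out SA:ANH. A further group of 3, SA:ANH-KDM5Ci, had the same strain, stress and subtype but an inhibitor of the histone demethylase KDM5C, and enters here only through the joint fit, where it bears on the filter for low counts, the scaling and the shared estimate of the spread. The stress and the choice of the subtype differ together between the groups and cannot be told apart. The labels do not name the animal behind each sample, so p-values measure the spread between samples, which may be technical. They also give no time of day for the dissection and do not say whether blood was flushed from the vessels.

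Cholesterol in the brain is made on site, because lipoprotein cholesterol does not cross the blood-brain barrier. Its synthesis genes are driven together by the transcription factor SREBP2 when membrane sterol is low. The circadian clock is a feedback loop in which BMAL1 (gene Arntl) and CLOCK switch on their own repressors, the Per and Cry genes, and output genes such as Dbp. Chaperones help proteins fold, those of the endoplasmic reticulum being induced by the unfolded protein response. SR and hnRNP proteins bind pre-mRNA and direct splicing, and many adjust their own transcripts by the same means.

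Depth ran from 29845097 to 42196472 counts per library over the 6 libraries. Cortical identity was checked on marker genes. The glutamatergic marker Slc17a7 stood between 1481 and 1687 CPM (counts scaled to library size) in each library, while Tbx21, a marker of olfactory bulb, stood between 0.0588 and 2.07 CPM. Several libraries stood apart. NS 1 had the highest immediate early genes (Fos at 45.7 CPM against 8.19 to 29.7 CPM in the other 5) and, with SA:ANH-vehicle 1, the highest myelin and striatal markers. In NS 3, Tbx21 and Eomes, both of olfactory bulb, reached 2.07 and 4.82 CPM. SA:ANH-vehicle 1 also had the highest score of meningeal markers, 0.43, and NS 1 had the lowest, -0.41. A score here is the median over a list's genes of log2 CPM minus the gene's mean over the 6 libraries. The early gene, myelin and striatal differences cross the groups. The high olfactory bulb values lay in an NS library, and the meningeal scores set NS 1 and SA:ANH-vehicle 1 at opposite ends. Results that rest on a single library are given with and without it.

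Hbb-b1 and Hbb-bs, which encode beta chains of haemoglobin, were the 2 genes that rose. Hbb-b1 stood at 43.2, 48.9 and 43.8 CPM in NS 1 to 3 and at 79.5, 88.0 and 83.3 CPM in SA:ANH-vehicle 1 to 3 (edgeR quasi-likelihood test with Benjamini-Hochberg adjustment, log2 fold change 0.88, SE 0.084, adjusted p = 0.00143). SE is the standard error of the log2 fold change, which is SA:ANH-vehicle over NS throughout. Hbb-bs (chr7:103826523-103827928 in GRCm38.p6) stood at 81.4, 88.2 and 77.2 CPM and 138, 149 and 141 CPM (log2 fold change 0.79, SE 0.079, adjusted p = 0.00143). The groups did not overlap in either gene, but the genes are near-identical copies and their reads may have been split between them. The sources used here do not show whether DBA2/J mice carry both as separate genes. The 2 calls are therefore not read as separate results. Alas2, the first enzyme of haem synthesis in red cell precursors, stood at 3.73, 4.77 and 3.38 CPM against 6.59, 7.17 and 6.62 CPM (log2 fold change 0.77, SE 0.12, adjusted p = 0.0579), and Hba-a2, an alpha chain, at 73.7, 74.0 and 65.1 CPM against 107, 129 and 118 CPM (log2 fold change 0.73, SE 0.11, adjusted p = 0.0676). Neither passed, although their groups did not overlap. Of the 10 blood markers tested, 9 lay above 0 and 6 at an unadjusted p under 0.05 in that direction, beside 4.27% of all genes, with a median log2 fold change of 0.78. Their summed level was 581 to 612 CPM in NS and 732 to 848 CPM in SA:ANH-vehicle. In these bulk samples, a difference in the number of cells of a type and a difference in RNA per cell cannot be told apart.

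No gene was lower at an adjusted p of 0.05 with edgeR, while 598 were at an unadjusted p under 0.05. DESeq2 called 38 lower and 43 higher, and limma-voom called 1 lower and 2 higher. Over both directions 1244 genes, 8.21% of those tested, had an unadjusted p under 0.05, 4.27% higher and 3.95% lower. The median over all genes was a log2 fold change of 0.0038, with 51.6% of genes above 0. Groups did not overlap, every library of one above every library of the other, for 15.1% of genes. The gene of lowest p among those lower was Cldn5 (chr16:18776847-18778262), a tight junction protein of brain endothelium, at 39.6, 38.6 and 38.7 CPM in NS and 29.9, 30.2 and 30.7 CPM in SA:ANH-vehicle (log2 fold change -0.36, SE 0.053, adjusted p = 0.0579). Both groups were narrow and well apart, and its log2 fold change stayed between -0.37 and -0.35 with any single library of the 6 left out. The adjusted p was 0.0482 with limma-voom and 4.75e-05 with DESeq2. Over all 20 alternatives Cldn5 was called in 7, and its adjusted p reached 0.372 with edgeR. It was called in none of the fits that left out an NS or SA:ANH-vehicle library.

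**Figure D1:**
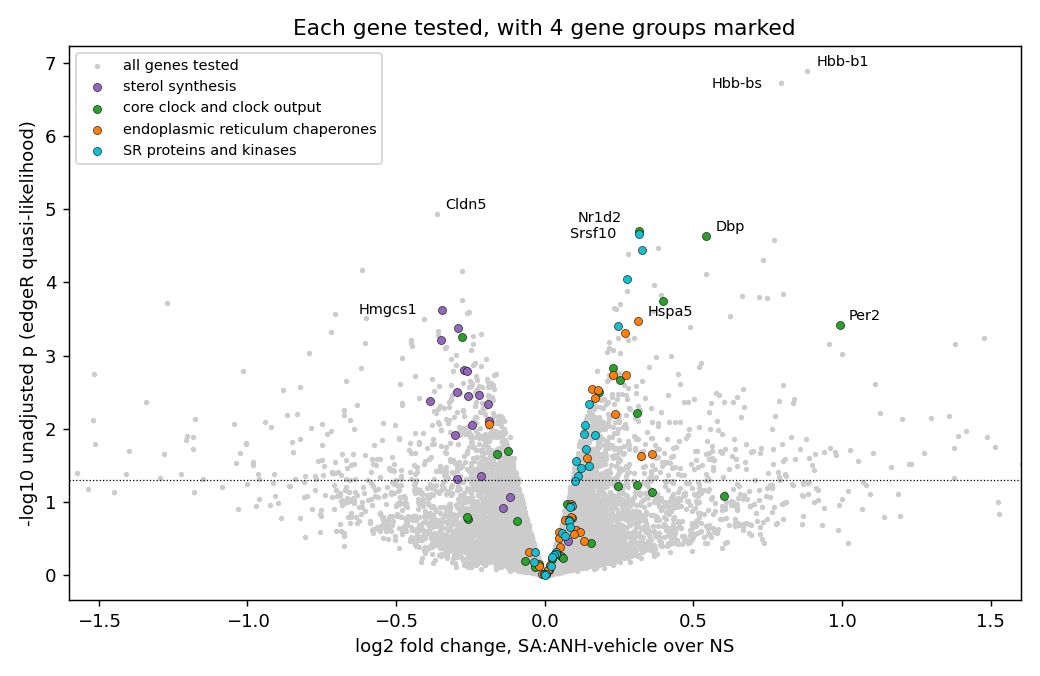
Each point is 1 of the 15144 genes tested, with log2 fold change of SA:ANH-vehicle over NS on the x axis and -log10 of the unadjusted edgeR p on the y axis; colours mark 4 gene groups, the dotted line marks 0.05, and 14 genes lie beyond the x axis limits of 1.6 either way. Sterol synthesis genes lie to the left of 0 except Ebp, and most SR genes and endoplasmic reticulum chaperones lie to the right, below the height of the 2 haemoglobin genes.

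Genes of cholesterol synthesis were lower in SA:ANH-vehicle along nearly the whole pathway. Of 18 genes tested, 17 lay below 0, with a median log2 fold change of -0.26, or -16.5%, where the median coefficient of variation between libraries of a group was 6.46%. At an unadjusted p under 0.05, 15 were lower, 83.3% of the list beside 3.95% of all genes, and none was higher. None passed after adjustment in the edgeR fit reported or with limma-voom. DESeq2 called 3 lower, and edgeR with only the 6 compared libraries called 1. The groups did not overlap in 15, beside 6.81% of all genes.

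The pathway starts with Acat2, which joins a pair of acetyl-CoA molecules, at 57.8, 50.1 and 50.1 CPM in NS and 44.0, 42.1 and 45.7 CPM in SA:ANH-vehicle (log2 fold change -0.26, SE 0.066). Hmgcs1 (chr13:119690351-119708260), which makes HMG-CoA in the next step, stood at 493, 497 and 507 CPM and 368, 395 and 415 CPM (log2 fold change -0.35, SE 0.069, adjusted p = 0.122 by edgeR). All 3 SA:ANH-vehicle libraries lay below all 3 NS libraries in both genes. Idi1, which isomerizes the isoprenoid unit, stood at 74.9, 70.4 and 70.2 CPM against 59.4, 58.5 and 60.8 CPM (log2 fold change -0.27, SE 0.068). Sqle, which adds the oxygen that commits squalene to sterols, stood at 99.5, 91.9 and 95.0 CPM against 68.6, 75.8 and 80.7 CPM (log2 fold change -0.35, SE 0.078, adjusted p = 0.175). Again no library of one group reached the range of the other. Msmo1, which oxidizes methyl groups of the sterol ring, stood at 105, 94.2 and 89.4 CPM against 74.6, 75.9 and 84.7 CPM (log2 fold change -0.30, SE 0.081). Nsdhl, which acts after it in removing those groups, stood at 31.1, 32.6 and 32.5 CPM against 25.2, 26.5 and 26.9 CPM (log2 fold change -0.29, SE 0.063). The groups were apart in both.

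The other members ranged from -0.39 (Mvd, mevalonate diphosphate decarboxylase) to 0.079 (Ebp, a sterol isomerase) in log2 fold change. Ebp was the only member above 0, at 15.8, 15.3 and 13.2 CPM against 15.6, 15.4 and 15.9 CPM, and its groups overlapped. Pmvk, Tm7sf2 and Ebp had an unadjusted p above 0.05, and the groups overlapped in Fdps, Tm7sf2 and Ebp. SA:ANH-vehicle 1, 2 and 3 lay below all NS libraries in 17, 17 and 15 of the 18 genes, against 27.1%, 22.6% and 26.2% of all genes.

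Cholesterol sensing and uptake genes split. Of 13 tested, 3 were lower at an unadjusted p under 0.05, 23.1% beside 3.95% of all genes, and none higher, and the list's median was -0.037. None passed adjustment with edgeR or limma-voom, and 2 did with DESeq2. Srebf2, the gene of SREBP2 itself, stood at 274, 264 and 264 CPM against 235, 243 and 238 CPM (log2 fold change -0.17, SE 0.042). Insig1, which holds SREBP2 in the endoplasmic reticulum when sterol is high, stood at 118, 107 and 98.6 CPM against 89.0, 82.0 and 85.9 CPM (log2 fold change -0.33, SE 0.076). Both are also SREBP2 targets, and in both the groups were apart. Stard4, a carrier of cholesterol between membranes, stood at 33.0, 34.5 and 36.7 CPM against 28.8, 27.5 and 27.7 CPM (log2 fold change -0.31, SE 0.087). The remaining 10, among them Srebf1, Scap, Mbtps1, Npc1, Vldlr and Lrp8, lay between -0.078 (Scap) and 0.076 (Insig2) in log2 fold change. Those 10 include the proteases and the escort protein of SREBP2, which are not themselves part of the synthesis route.

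Fatty acid synthesis shifted less. Of 12 genes, 4 were lower and 1 higher at an unadjusted p under 0.05, beside 3.95% and 4.27% of all genes, with a median of -0.11. No member passed adjustment with edgeR, DESeq2 or limma-voom. Scd1, the desaturase of stearate, stood at 222, 208 and 194 CPM against 194, 172 and 168 CPM (log2 fold change -0.23, SE 0.062), and its groups only just failed to overlap. Fasn, fatty acid synthase, stood at 418, 413 and 408 CPM against 388, 369 and 353 CPM (log2 fold change -0.16, SE 0.049). Elovl6, which lengthens fatty acids, went the other way, at 58.4, 61.8 and 64.1 CPM against 73.1, 69.9 and 69.7 CPM (log2 fold change 0.21, SE 0.055). Fads2 and Acly had log2 fold changes of -0.19 and -0.12. Among 8 genes of sterol efflux and LXR targets the median was 0.019, and it ran from -0.015 to 0.049, across 0, with each library left out. Lpcat3, a phospholipid acyltransferase, was the 1 member at an unadjusted p under 0.05 (log2 fold change -0.28, SE 0.074), and the exporters Abca1 and Abcg1 had log2 fold changes of 0.16 and 0.033 with overlapping groups. Cyp46a1, the neuronal enzyme that turns cholesterol into its exported form, was at -0.067.

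**Figure D2:**
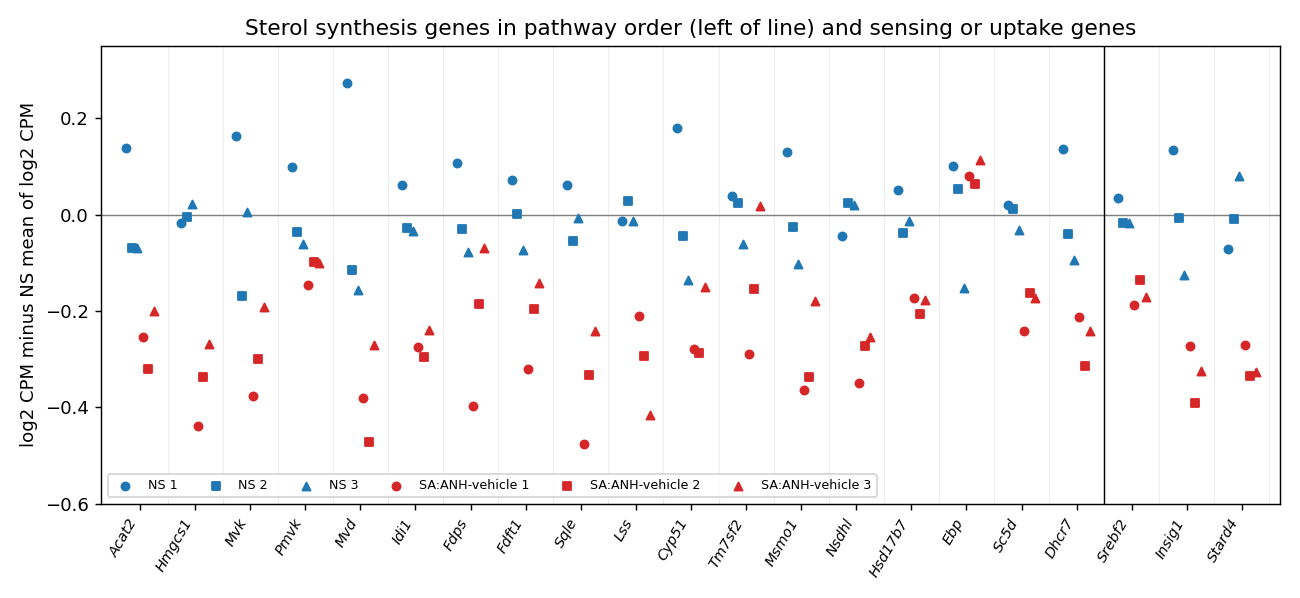
Log2 CPM of each library minus the NS mean for that gene (y axis), for 18 sterol synthesis genes in pathway order and, right of the line, 3 sensing or uptake genes (x axis); blue marks are NS, red marks SA:ANH-vehicle, and the shape gives the library. Red marks lie below blue marks in 15 of the 18 synthesis genes and in the 3 sensing or uptake genes.

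The sterol shift was not carried by 1 library, though NS 1 enlarged it. The synthesis list's score was 0.19, 0.091 and 0.052 in NS 1 to 3 and -0.18, -0.15 and -0.069 in SA:ANH-vehicle 1 to 3. The median log2 fold change was -0.19 without NS 1 and between -0.29 and -0.23 without any other single library, with 12 to 15 genes lower at an unadjusted p under 0.05. Over all 15144 genes, 401 to 685 were lower at that level in those fits. Myelin, made by oligodendrocytes, is the main cholesterol store of the brain. The score of 13 oligodendrocyte and myelin markers was 0.45, -0.17 and -0.55 in NS and 0.56, -0.16 and -0.17 in SA:ANH-vehicle, with summed levels of 1614 to 3274 CPM and 2105 to 3307 CPM and Myrf listed at 0. None of the 13 was at an unadjusted p under 0.05, and 12 lay above 0. The 2 libraries rich in myelin, NS 1 and SA:ANH-vehicle 1, sat at the opposite ends of the sterol score. With both left out, the sterol median was -0.18 and 11 of the 18 genes were lower at an unadjusted p under 0.05, beside 869 of all 15155 genes in that fit. Astrocyte markers, 16 of them, had a median of -0.043, none at an unadjusted p under 0.05 and summed levels of 6674 to 7256 CPM and 6406 to 7111 CPM.

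The promoter of Hmgcs1 is shown because it is the one sterol synthesis promoter, of 15 with a RefSeq sequence, that held the sterol response element TCACNCCAC in the 250 bases before the start. That spelling occurred in 1.22% of the 11898 tested genes with a sequence, on either strand. The element is in capitals, 128 bases before the start, with 20 bases on each side, in GRCm38.p6:
Hmgcs1 (chr13:119690194-119690242, + strand): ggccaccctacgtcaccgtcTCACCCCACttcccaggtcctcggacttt

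Clock genes differed in both directions. Per2, Per3 and Cry1, repressors of the loop, were higher in SA:ANH-vehicle and the activator Arntl was lower. Of 18 core clock genes, 3 were higher and 1 lower at an unadjusted p under 0.05, with a median of 0.057. That is 16.7% and 5.56%, beside 4.27% and 3.95% of all genes, so the lower share was near that of all genes. Of 10 output genes tested, 5 were higher and 2 lower beside the same shares, with a median of 0.24, and Bhlhe41 was listed at 0 in every library. None passed adjustment in the edgeR fit reported or with limma-voom. DESeq2 called 3 core genes and 3 output genes, and edgeR with only the 6 compared libraries called 2 and 2.

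Per2 (chr1:91415977-91459351) stood at 21.9, 21.1 and 20.2 CPM in NS and 33.3, 46.1 and 47.0 CPM in SA:ANH-vehicle (log2 fold change 0.99, SE 0.18, adjusted p = 0.153 by edgeR). The NS libraries were tightly grouped, and SA:ANH-vehicle 1 lay between them and the other two. Without that library the log2 fold change was 1.14. Per3 stood at 54.2, 53.8 and 47.0 CPM against 67.8, 69.0 and 67.8 CPM (log2 fold change 0.40, SE 0.077, adjusted p = 0.115), and Cry1 at 14.3, 12.9 and 13.8 CPM against 16.3, 17.5 and 17.1 CPM (log2 fold change 0.31, SE 0.095). In both the groups were apart. Arntl (chr7:113178471-113314126) stood at 48.5, 50.8 and 54.3 CPM against 42.3, 41.6 and 42.6 CPM (log2 fold change -0.28, SE 0.062, adjusted p = 0.173), the only core gene lower at an unadjusted p under 0.05. Npas2, a partner of BMAL1, had groups that did not overlap but a log2 fold change of only -0.095, and Clock was at -0.032 with overlapping groups.

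Per1 and Cry2 did not follow Per2 and Cry1. Per1 stood at 94.7, 66.2 and 66.5 CPM against 73.1, 65.3 and 79.0 CPM (log2 fold change -0.066, SE 0.14). Its highest value was in NS 1, the library that was also highest in Fos, and the other 5 ranged from 65.3 to 79.0 CPM. Cry2 had a log2 fold change of 0.0025. Nfil3, a repressor at D-box sites, likewise stood highest in NS 1, at 15.3, 9.36 and 9.84 CPM against 10.9, 9.04 and 8.91 CPM.

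Among output genes, Nr1d2 (chr14:18204056-18239106), which encodes the repressor REV-ERB beta, stood at 132, 138 and 134 CPM against 175, 165 and 163 CPM (log2 fold change 0.32, SE 0.049, adjusted p = 0.0579). Its relative Nr1d1 (REV-ERB alpha) stood at 137, 129 and 134 CPM against 130.4, 109 and 119 CPM (log2 fold change -0.16, SE 0.063), lower in value with 1 pair of libraries overlapping. The PAR bZIP activators, which act at D-box sites, were all higher in value. Dbp (chr7:45705100-45710203) stood at 69.2, 65.1 and 60.4 CPM against 85.5, 95.7 and 103 CPM (log2 fold change 0.54, SE 0.084, adjusted p = 0.0579). Tef stood at 344, 373 and 339.7 CPM against 398, 428 and 414 CPM (log2 fold change 0.23, SE 0.058), and Hlf at 222, 228 and 207 CPM against 283, 252 and 247 CPM (log2 fold change 0.25, SE 0.066). In all 3 every stressed library was above every NS library. Wee1, a cell cycle kinase under clock control, had a log2 fold change of 0.18, and Usp2, a deubiquitinase, one of -0.12. Leaving out any single library of the 6 kept an unadjusted p under 0.05 for Per2, Per3, Cry1, Arntl, Nr1d2, Dbp, Tef, Hlf and Wee1, while Usp2 kept it in 2 of 6. Without NS 1, 7 output genes were higher and none lower at that level, beside 678 and 654 of all 15144 genes.

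**Figure D3:**
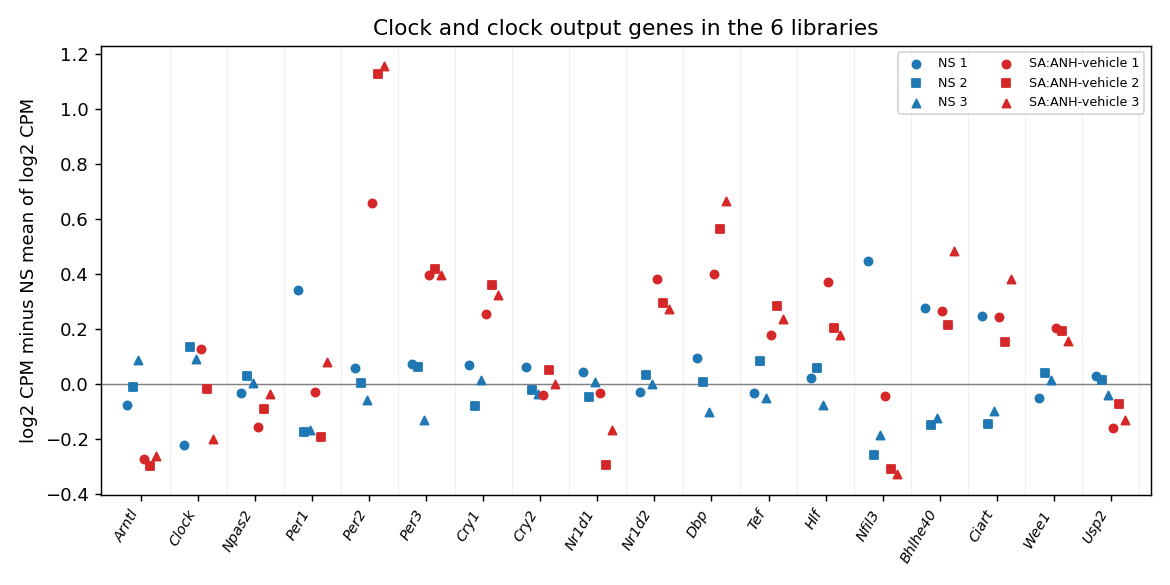
Log2 CPM of each library minus the NS mean for that gene (y axis) for 18 clock and clock output genes (x axis); blue marks are NS, red marks SA:ANH-vehicle, and the shape gives the library. Per2, Per3, Cry1, Nr1d2, Dbp, Tef, Hlf and Wee1 have red marks above blue ones, Arntl, Npas2 and Usp2 have them below, and in Per1 and Nfil3 NS 1 stands alone.

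Promoters of a clock gene in each class are shown with the motif found. The D-box TTATGTAA was present in 2 of 13 core clock genes with a sequence, beside 0.714% of tested genes, and the E-box CACGTG in 2 of 8 output genes, beside 9.38%. In turn, the D-box was in 0 of 8 output genes and the E-box in 2 of 13 core genes. The E-box was also in 3 of 15 sterol synthesis, 4 of 20 hnRNP and 1 of 28 SR genes, so its share was not particular to output genes. The capitals mark the D-box in Per3, 197 bases before the start, and the E-box in Tef, 121 bases before it. The E-box reads the same on both strands, and the Per3 window held 2 D-box matches, of which 1 is shown. Coordinates are in GRCm38.p6:
Per3 (chr4:151044843-151044890, - strand): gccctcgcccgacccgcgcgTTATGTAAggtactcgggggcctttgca
Tef (chr15:81802526-81802571, + strand): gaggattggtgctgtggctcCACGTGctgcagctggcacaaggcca

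Chaperones of the endoplasmic reticulum were mostly higher in SA:ANH-vehicle. Of 30 genes tested for endoplasmic reticulum folding and the unfolded protein response, 26 lay above 0, with a median of 0.094, and 11 were higher and 1 lower at an unadjusted p under 0.05. That is 36.7% higher and 3.33% lower, beside 4.27% and 3.95% of all genes. None passed adjustment with edgeR or limma-voom, and 2 did with DESeq2. The groups did not overlap for 11 higher genes, beside 8.29% of all genes. Xbp1, whose product drives many of these genes, and Selenos were listed at 0 in every library and say nothing here.

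Hspa5 (chr2:34772090-34776529), the lumenal HSP70 also called BiP, stood at 298, 296 and 269.7 CPM against 329.8, 377 and 368 CPM (log2 fold change 0.31, SE 0.065, adjusted p = 0.139 by edgeR). Calr, calreticulin, stood at 363, 355 and 318 CPM against 387, 410.1 and 418 CPM (log2 fold change 0.23, SE 0.059). Every stressed library lay above every NS library in both. Pdia4, a disulfide isomerase, stood at 34.4, 33.9 and 32.3 CPM against 39.7, 41.3 and 40.2 CPM (log2 fold change 0.27, SE 0.059), and Pdia6, of the same family, at 104, 105 and 96.0 CPM against 110.0, 130.1 and 129 CPM (log2 fold change 0.27, SE 0.071). Hsp90b1, the lumenal HSP90, stood at 391, 388 and 388 CPM against 421, 439.8 and 441 CPM (log2 fold change 0.16, SE 0.043). In these the groups were also apart, with SA:ANH-vehicle 1 the lowest stressed library in each. Dnajc3, a lumenal co-chaperone, had a log2 fold change of 0.18, Pdia3 one of 0.17 and Manf, a secreted stress-induced factor, one of 0.24. Eif2ak3, the sensor kinase PERK, was the 1 member lower at an unadjusted p under 0.05, at 41.1, 36.6 and 37.7 CPM against 34.3, 33.8 and 33.2 CPM (log2 fold change -0.19, SE 0.061).

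The endoplasmic reticulum stress element, spelled as CCAAT and CCACG with 9 unspecified bases between them and searched on both strands, was found in 9 of the 26 list members with a promoter sequence and in 0.168% of the 11898 tested genes. Calr, Canx, Creld2, Dnajc3, Ero1b, Hsp90b1, Hspa5, Pdia6 and Syvn1 held it. All 9 lay above 0, with a median log2 fold change of 0.18 and 6 at an unadjusted p under 0.05. The 17 without it had a median of 0.090, 14 above 0 and 5 at that level, from -0.19 to 0.36. The 2 sets overlapped: Canx, Ero1b and Syvn1, with the element, lay between 0.013 and 0.050, while Sdf2l1 (0.36) and Pdia4 (0.27) lacked it. The list was chosen with earlier results of these data known, and whether the element bears on the shift was not tested. The stretches are shown for the 5 of lowest p, since they share a spelled element while the genes lie on different chromosomes. The capitals mark the element, which in Calr lies on the reverse strand, with 20 bases on each side and coordinates in GRCm38.p6:
Hspa5 (chr2:34772005-34772063, + strand): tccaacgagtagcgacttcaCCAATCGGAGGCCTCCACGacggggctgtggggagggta
Calr (chr8:84847055-84847113, - strand): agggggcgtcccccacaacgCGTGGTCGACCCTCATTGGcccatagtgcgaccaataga
Pdia6 (chr12:17266471-17266529, + strand): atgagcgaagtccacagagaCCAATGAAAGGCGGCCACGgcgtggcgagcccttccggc
Hsp90b1 (chr10:86705618-86705676, - strand): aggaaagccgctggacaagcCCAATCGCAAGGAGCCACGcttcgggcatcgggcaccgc
Dnajc3 (chr14:118937807-118937865, + strand): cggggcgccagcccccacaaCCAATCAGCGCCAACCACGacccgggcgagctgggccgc
The element lies 46, 143, 79, 193 and 86 bases before the start in that order, and Hsp90b1 held a further match that is not shown.

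Cytosolic and nuclear chaperones differed less. Of 45 tested, 32 lay above 0, with a median of 0.042, and 6 were higher and 1 lower at an unadjusted p under 0.05. That is 71.1% above 0 beside 51.6% of all genes, 13.3% higher beside 4.27% and 2.22% lower beside 3.95%. DESeq2 called 2 after adjustment, edgeR without TMM called 1, and the edgeR fit reported and limma-voom called none. Chordc1, an HSP90 co-chaperone, stood at 60.1, 62.2 and 60.7 CPM against 71.2, 74.8 and 76.4 CPM (log2 fold change 0.28, SE 0.047, adjusted p = 0.0612 by edgeR). Hspb1, a small heat shock protein, stood at 4.13, 4.24 and 3.65 CPM against 6.96, 6.02 and 5.50 CPM (log2 fold change 0.62, SE 0.13). Both had groups that did not overlap. Ahsa2, an activator of HSP90, was at 0.20 and Ptges3, its co-chaperone p23, at 0.14. Dnajb1, the inducible HSP40, was at 0.19 with overlapping groups, and Hsf1, the heat shock transcription factor, at 0.18. Hspa2, an HSP70 relative, was the lower member, at 30.9, 29.9 and 32.0 CPM against 23.9, 29.2 and 27.8 CPM (log2 fold change -0.20, SE 0.073). Without NS 1, 10 members instead of 6 were higher at that level, where the number over all genes was 678 instead of 646.

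The 7 subunits tested of TRiC, the chaperonin that folds actin and tubulin, had a median of 0.048, which ran from 0.020 without SA:ANH-vehicle 3 to 0.080 without NS 1. Cct8 stood at 173, 178 and 182 CPM against 187, 190.0 and 196 CPM and was the one member at an unadjusted p under 0.05 (log2 fold change 0.11, SE 0.046). SA:ANH-vehicle 3 lay above all NS libraries in 7 of 7 subunits, SA:ANH-vehicle 1 in 1 of 7, so the list's score overlapped between groups. Mitochondrial chaperones, 9 of them, had a median of 0.022, with Hspd1, HSP60, at 0.11. That median was -0.0017 without NS 2.

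Splicing factors of the SR family were higher in SA:ANH-vehicle as a list. Of 31 SR proteins, relatives and their kinases, 28 lay above 0, with a median of 0.086, and 13 were higher, 41.9% beside 4.27% of all genes, and none lower at an unadjusted p under 0.05. None passed adjustment in the edgeR fit reported or with limma-voom. DESeq2 called 4, and edgeR called 1 with only the 6 compared libraries and 2 without TMM. The groups did not overlap for 14, all higher, beside 8.29% of all genes. The list's score was -0.069, -0.056 and -0.050 in NS and 0.044, 0.066 and 0.056 in SA:ANH-vehicle, with no overlap between the groups. The median gene was 6.16% higher, where the median coefficient of variation between libraries of a group was 3.21%.

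Srsf10 (chr4:135855752-135869908), an SR protein that represses splicing after heat shock, stood at 59.4, 62.4 and 62.6 CPM against 74.9, 76.2 and 78.4 CPM (log2 fold change 0.32, SE 0.049, adjusted p = 0.0579 by edgeR). Tra2a, a splicing activator, stood at 60.1, 56.5 and 55.0 CPM against 69.4, 74.5 and 71.6 CPM (log2 fold change 0.33, SE 0.054, adjusted p = 0.0608). Neither gene had overlapping groups. Srsf3, the smallest SR protein, stood at 122, 118 and 121 CPM against 144, 144 and 148 CPM (log2 fold change 0.28, SE 0.050, adjusted p = 0.0908), and Srsf7 at 81.3, 74.4 and 79.0 CPM against 90.5, 91.8 and 96.1 CPM (log2 fold change 0.25, SE 0.052). These 4 had the lowest p of the list, and their groups did not overlap. Rbm39, an SR-related coactivator, was at 0.15 and Pnn, a nuclear speckle protein, at 0.13. At the other end Srsf4, Srsf5, Srsf9, Srsf12 and Srrm2 lay between -0.036 and 0.00023 in log2 fold change with overlapping groups. The kinases Clk1 to Clk4, which phosphorylate SR proteins, lay between 0.038 (Clk2) and 0.081 (Clk3), and Srpk1 was at 0.10. Counts here are per gene and do not separate isoforms. The number at an unadjusted p under 0.05 was 7 without SA:ANH-vehicle 2 and 8 without NS 3, and the median stayed between 0.086 and 0.098. Over all genes the number higher at that level also fell in those fits, from 646 to 467 and 521.

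The hnRNP list had 16 of 22 tested genes above 0, a median of 0.059, and 8 higher, 36.4% beside 4.27% of all genes, and none lower at an unadjusted p under 0.05, with Hnrnpr listed at 0. None passed adjustment with edgeR or limma-voom, and DESeq2 called 1. Hnrnph1, which binds G-rich RNA, stood at 183, 174 and 179 CPM against 211, 199.7 and 212 CPM (log2 fold change 0.22, SE 0.049). Its relative Hnrnph3 stood at 33.8, 33.1 and 29.9 CPM against 36.8, 38.5 and 38.9 CPM (log2 fold change 0.24, SE 0.061). Both had groups apart. Hnrnpm, Hnrnpd, Hnrnpc and Hnrnpa2b1 lay between 0.12 (Hnrnpa2b1) and 0.15 (Hnrnpm). The count of 8 became 4 without SA:ANH-vehicle 3 and 5 without NS 1 or NS 2. Over all genes the number higher at that level was 646 with all libraries. It was 678, 461 and 521 without NS 1, NS 2 and NS 3, and 467 and 572 without SA:ANH-vehicle 2 and 3. The core spliceosome, 30 genes, had a median of 0.042 with 2 higher at that level, the helicase Dhx15 (log2 fold change 0.13, SE 0.045) and Prpf39 (log2 fold change 0.12, SE 0.052). That share, 6.67%, was near the 4.27% of all genes, and no member was at that level without SA:ANH-vehicle 2. Among 21 neuronal splicing regulators the median was 0.062 with 4 higher, 19.0% of the list, led by Rbfox2 (log2 fold change 0.11, SE 0.043), Mbnl1 at 0.10 and Elavl4 at 0.13, and none without NS 3 or without SA:ANH-vehicle 2. No member of these 2 lists passed adjustment with edgeR, DESeq2 or limma-voom.

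The RNA-binding proteins Cirbp and Rbm3, known to be induced by cooling, were lower. Cirbp (chr10:80165990-80172786) stood at 56.2, 57.4 and 64.9 CPM against 46.2, 47.7 and 51.1 CPM (log2 fold change -0.30, SE 0.071, adjusted p = 0.208 by edgeR), and Rbm3 at 91.3, 90.4 and 92.4 CPM against 67.5, 80.2 and 81.6 CPM (log2 fold change -0.26, SE 0.087, adjusted p = 0.433). The groups did not overlap in either, and SA:ANH-vehicle 1 was the lowest library in both. Each kept an unadjusted p under 0.05 with any single library of the 6 left out. Nuclear long noncoding RNAs leaned the other way, all 5 above 0 with a median of 0.091. Malat1 stood at 1015, 995 and 977 CPM against 1036, 1045 and 1101 CPM (log2 fold change 0.091, SE 0.054), and Snhg11 at 1257, 1368 and 1332 CPM against 1482, 1455 and 1426 CPM (log2 fold change 0.14, SE 0.064).

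Glucocorticoid-responsive genes, which answer to the stress hormone corticosterone, were higher in part. Of 27 tested, 21 lay above 0 with a median of 0.087, and 5 were higher, 18.5% beside 4.27% of all genes, and none lower at an unadjusted p under 0.05. The median was 0.036 without SA:ANH-vehicle 1, 0.045 without NS 2 and 0.14 without NS 1. None passed adjustment in the edgeR fit reported or with limma-voom, while 1 did with DESeq2 and 1 with edgeR on only the 6 compared libraries. Fkbp5 (chr17:28398753-28486149), which dampens the glucocorticoid receptor as part of its HSP90 complex, stood at 21.7, 23.6 and 23.2 CPM against 30.4, 33.1 and 32.5 CPM (log2 fold change 0.49, SE 0.10, adjusted p = 0.153 by edgeR). Tsc22d3, also called GILZ, stood at 47.3, 39.3 and 39.5 CPM against 55.9, 48.1 and 52.2 CPM (log2 fold change 0.31, SE 0.083). Their groups were apart. Cebpd, a transcription factor, stood at 2.01, 1.42 and 1.81 CPM against 4.01, 2.91 and 2.35 CPM (log2 fold change 0.84, SE 0.24), with SA:ANH-vehicle 1 highest. Sgk1, Klf9 and the receptor gene Nr3c1 lay between 0.0031 and 0.053. Without NS 1 the count of 5 became 8, where the number higher over all genes went from 646 to 678.

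Interferon-response genes had 21 of 22 above 0, 95.5% beside 51.6% of all genes, and a median of 0.26. At an unadjusted p under 0.05, 9 were higher, 40.9% beside 4.27%, and none lower, with none passing adjustment in edgeR, DESeq2 or limma-voom. Irf9, part of the complex that carries interferon signals, stood at 8.37, 7.02 and 7.56 CPM against 9.82, 10.4 and 9.56 CPM (log2 fold change 0.37, SE 0.090). Ifi27 stood at 16.4, 15.7 and 15.6 CPM against 18.1, 18.9 and 18.9 CPM (log2 fold change 0.22, SE 0.063), and Oasl2 at 2.23, 2.17 and 2.51 CPM against 4.12, 3.50 and 2.68 CPM (log2 fold change 0.58, SE 0.16). Their groups did not overlap, but in Oasl2 the lowest stressed library was close to the highest NS one. The list's score was -0.20, -0.082 and -0.023 in NS and 0.15, 0.24 and -0.012 in SA:ANH-vehicle, close together in NS 3 and SA:ANH-vehicle 3. Of 15 microglia markers, 13 lay above 0, beside 51.6% of all genes, and none had an unadjusted p under 0.05 in the fit reported. The groups did not overlap for 5, all higher, beside 8.29% of all genes. With only the 6 compared libraries, 3 were higher at an unadjusted p under 0.05, beside 673 of 14964 genes. The summed level of the microglia markers was 486 to 494 CPM in NS and 511 to 526 CPM in SA:ANH-vehicle. Their part in the interferon values was not tested.

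Most immediate early genes, which neurons switch on soon after activity, varied more between libraries of the same group than between the group means. Fos stood at 45.7, 8.19 and 8.43 CPM against 29.7, 10.8 and 15.1 CPM (log2 fold change -0.16, SE 0.76, adjusted p = 0.985 by edgeR). Arc stood at 338, 63.5 and 35.8 CPM against 224, 47.6 and 104 CPM (log2 fold change -0.22, SE 0.93). In both, NS 1 was highest and SA:ANH-vehicle 1 second. The median of the 20 genes was -0.17 with all libraries and 0.41 without NS 1, so its sign depended on that library. With all libraries it was 0.0029 by limma-voom and -0.058 in edgeR with a replicate block, so it also depended on the fit. Jun stood at 82.4, 66.0 and 62.7 CPM against 55.8, 55.0 and 58.9 CPM (log2 fold change -0.31, SE 0.088) and Jund was at -0.23. The groups were apart in both, in Jund by less than 0.1 CPM. Without NS 1 these log2 fold changes shrank to -0.18 for Jun and -0.14 for Jund, the latter at an unadjusted p of 0.0547 in edgeR's quasi-likelihood test. Ptgs2, cyclooxygenase 2, was the higher member, at 6.78, 4.52 and 5.95 CPM against 9.47, 8.06 and 8.09 CPM (log2 fold change 0.57, SE 0.16).

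Vessel genes went both ways. Beside Cldn5, Ly6a, an endothelial surface protein, stood at 15.8, 16.4 and 18.2 CPM against 26.9, 23.8 and 21.8 CPM (log2 fold change 0.53, SE 0.12), and the glucose transporter Slc2a1 at 73.1, 66.2 and 65.9 CPM against 79.2, 84.8 and 79.1 CPM (log2 fold change 0.24, SE 0.069). Neither had overlapping groups. The 20 endothelial markers had a median of 0.075, with 2 higher and 2 lower at an unadjusted p under 0.05, beside 4.27% and 3.95% of all genes, and summed levels of 518 to 541 CPM in NS and 538 to 580.3 CPM in SA:ANH-vehicle. Their median was 0.0096 without SA:ANH-vehicle 1, 0.034 without NS 1 and -0.022 without both. The 12 mural cell markers tested had none at that level, and Acta2 was listed at 0. The 15 meningeal and fibroblast markers had a median of 0.040, with 2 higher, 13.3% beside 4.27%, and 0 lower at that level. Their median was -0.12 without NS 1 and -0.18 without SA:ANH-vehicle 1. With both left out it was -0.28, and 9 of the 15 were lower, beside 869 of all 15155 genes in that fit. Among neurons, 17 excitatory markers had a median of -0.013 with none at that level, and of 14 interneuron markers Npy, a neuropeptide, was the 1 that was lower (log2 fold change -0.23, SE 0.065). Tbx21 and Eomes had log2 fold changes of -3.37 and -3.42, but without NS 3 these shrank to -1.90 and -1.97. Olfactory bulb and thalamus markers summed to 93.7 to 165 CPM in NS and 90.7 to 103 CPM in SA:ANH-vehicle. Of the 13 tested, 4 were lower, 30.8% beside 3.95% of all genes, and 0 higher at an unadjusted p under 0.05. The count lower was 7 without NS 2, 3 without NS 3 and 1 without SA:ANH-vehicle 1 or SA:ANH-vehicle 3. Over all genes the number lower was 484, 401, 685 and 455 in those fits in turn, against 598 with all libraries. The list's median was -0.14, and DESeq2 called 1 member after adjustment, Tbx21.

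Outside the lists, 5 further genes were among the 15 of lowest p on the higher side. Banp, a nuclear matrix protein that binds CGCG promoter motifs, stood at 20.8, 19.9 and 22.0 CPM against 27.1, 27.9 and 26.5 CPM (log2 fold change 0.38, SE 0.062, adjusted p = 0.0608 by edgeR). Pfkfb3, which raises glycolytic flux, stood at 32.6, 30.1 and 28.7 CPM against 38.0, 39.2 and 40.7 CPM (log2 fold change 0.37, SE 0.068). The groups were apart in both. Zbtb40 (0.54), Ebna1bp2 (0.28), which takes part in ribosome assembly, and Paqr5 (0.80), a membrane progesterone receptor, completed them. On the lower side, Grm2, the presynaptic glutamate receptor mGluR2, stood at 101, 99.8 and 112 CPM against 80.0, 85.8 and 78.3 CPM (log2 fold change -0.36, SE 0.079). Wnt10b, a Wnt ligand, stood at 1.19, 1.64 and 2.07 CPM against 0.539, 0.700 and 0.794 CPM (log2 fold change -1.27, SE 0.25). No stressed library reached the NS range in either. Usp43 (-0.61), Rasl11b (-0.40), Opn3 (-0.36), Chpf2 (-0.28), Psd2 (-0.26), Zfyve28 (-0.26) and Zdhhc8 (-0.21), a palmitoyltransferase, were the others, in log2 fold change. Each of these kept an unadjusted p under 0.05 with any single library of the 6 left out.

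**Figure D4:**
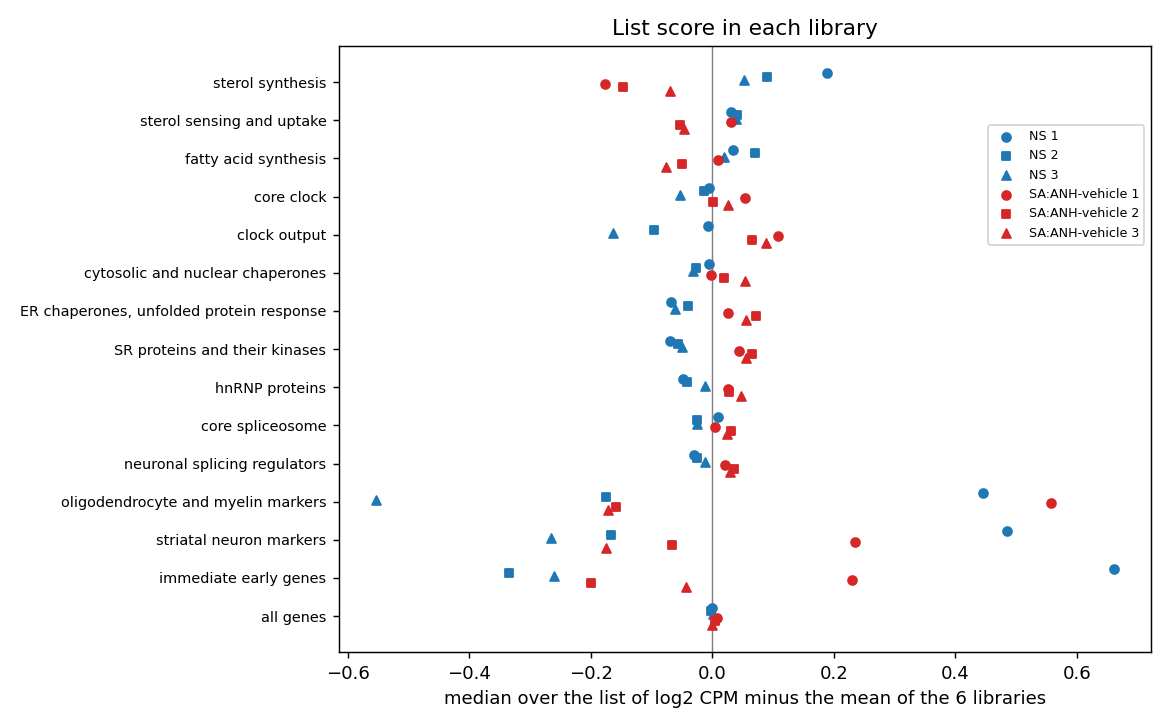
Score of each list in each library (x axis, median over the list of log2 CPM minus the gene's mean over the 6 libraries), 1 row per list; blue marks are NS, red marks SA:ANH-vehicle, and the shape gives the library. NS and SA:ANH-vehicle are apart for sterol synthesis, clock output, endoplasmic reticulum chaperones and SR proteins, while myelin, striatal and immediate early gene scores put NS 1 and SA:ANH-vehicle 1 together at the high end.

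Single libraries bore on the comparison unequally. In a principal component analysis of the 6 libraries, the first axis held 29.2% of the variance and set SA:ANH-vehicle 1, at 23.3, against the NS libraries at -14.3 to -6.74, with SA:ANH-vehicle 3 near 0 at 0.0516. The second, with 24.2%, set NS 1 apart at 22.8. Of the 1244 genes at an unadjusted p under 0.05, 365 kept that level in all 6 fits that each left out 1 of these libraries, and 16 kept it in none. The library whose removal shifted the log2 fold change most was SA:ANH-vehicle 1 for 333 of these genes and NS 1 for 290, against 138 to 166 for each of the other 4. Counted over the 15144 genes of the fit reported, the number at that level was 1332 without NS 1 and 1250 without SA:ANH-vehicle 1. Leaving out any other library gave 922 to 1027.

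The lists differed in how far they leaned on single libraries. Medians without each library in turn ran from -0.29 to -0.19 for sterol synthesis, from 0.20 to 0.24 for clock output, from 0.091 to 0.12 for endoplasmic reticulum chaperones and from 0.051 to 0.067 for hnRNP proteins. For the core clock they ran from 0.022 to 0.076, and for immediate early genes from -0.31 to 0.41, across 0. Myelin markers, high in 1 library of each group, ran from -0.18 to 0.45.

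**Figure D5:**
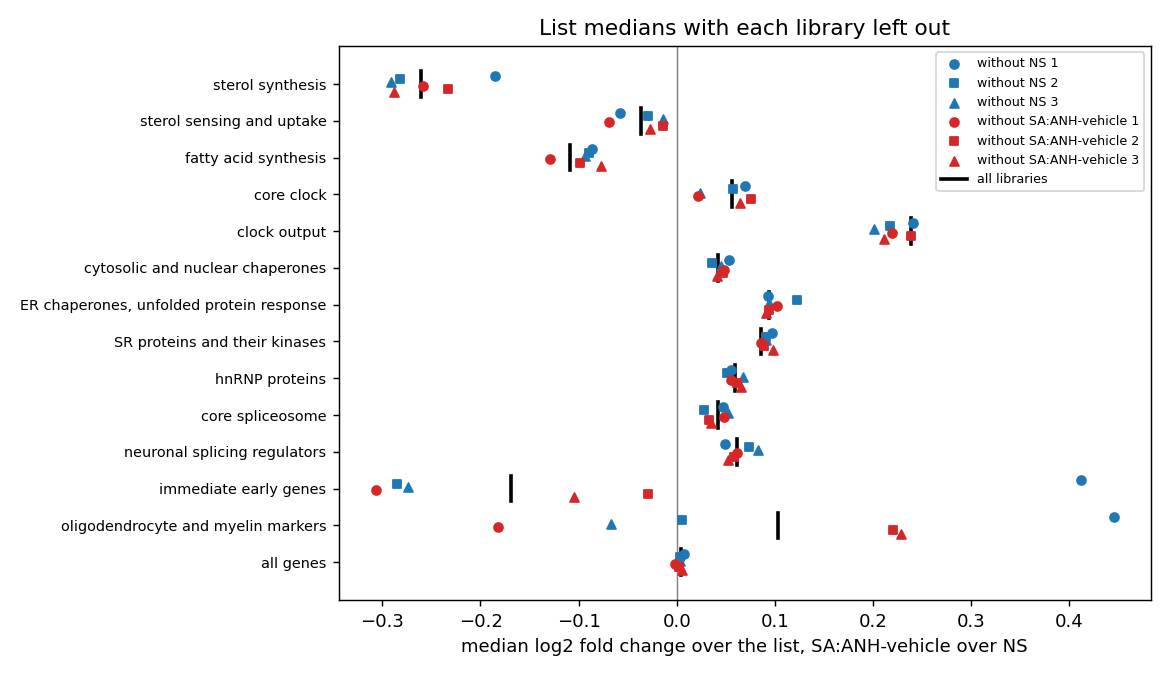
Median log2 fold change of each list, SA:ANH-vehicle over NS (x axis), with all libraries (black bar) and with each of the 6 libraries left out (marks, blue for an NS library and red for a SA:ANH-vehicle library), 1 row per list. The sterol, fatty acid, clock, chaperone and splicing lists plotted stay on 1 side of 0. The immediate early gene median crosses 0 without NS 1, and the myelin median crosses it without NS 3 or SA:ANH-vehicle 1.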

How the data were processed

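Total RNA of frozen medial prefrontal cortex went into strand-marking libraries, per the labels' protocols. The values the authors deposited are expected counts by NCBI gene ID, of which 15.7% of those above 0 are whole within 1e-06. Trimmomatic 0.32, TopHat2 2.0.13, Bowtie2 2.2.3 and mm10 are named, per the submitters' processing notes. The sources used here do not give how reads were counted or whether by strand, so antisense partners cannot be told apart. The table held 0 columns of other samples. Symbols, positions and promoters came from RefSeq tables of GRCm38.p6, which matched 32891 of 36172 IDs. Unmatched features held 0.367% of counts, and 1 of them held 0.402% of NS 1 and 0.289% of SA:ANH-vehicle 3 against 0.132% to 0.171% of the other 4.

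Expected counts were rounded, filtered with filterByExpr, scaled by TMM and tested with the quasi-likelihood test of edgeR 4.0.16 (robust, R 4.3.3) in 1 fit of all 9 libraries with 1 mean per group and Benjamini-Hochberg adjustment over 15144 genes at 0.05. The common biological coefficient of variation was 6.95%. A count of 0 allows up to 3 counts, or 0.0711 to 0.101 CPM in the 6 libraries, counting error only. That bound does not cover a gene missed when the authors counted reads. Xbp1, Selenos, Hnrnpr, Acta2, Myrf and Bhlhe41, at 0 in every library, are therefore not read as unexpressed. The script was tested on simulated data. Alternatives were DESeq2 1.42.0, limma-voom (limma 3.58.1), other scalings, filters and thresholds, only the 6 libraries, a block on replicate number, and leaving out each library. Leaving out NS 1 and SA:ANH-vehicle 1 together was added after seeing the data.

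The 32 gene lists, the tests and the naming rule were chosen with earlier results of these data known, so lists carry counts and medians and no test of their own. Named genes were those called, up to 15 of lowest p per direction at 1 CPM or more in the higher group with a known symbol, the 6 members of lowest p in each sterol, clock, chaperone and splicing list, the 3 of lowest p in other lists, and Fos. Other genes that are named were picked as contrast after their values were seen. Some genes are not reported here, and lists were counted without them.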

Additional observations from a re-analysis of the deposited data

How the results depend on the processing

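The number of genes called, 2 in the fit reported, was 81 with DESeq2 (43 higher, 38 lower), 17 with only the 6 compared libraries (14 and 3), 15 at an adjusted p under 0.1 (12 and 3), 11 with library size without TMM (10 and 1), 11 with no filter on low counts (9 and 2) and 3 with limma-voom. With the replicate number as a block it was 4 in a fit of 6 libraries and 2 in a fit of 9. The numbers share no stated source, and same-numbered deviations from the group means correlated at 0.056, 0.027 and -0.031, so the block is not read as a pairing. Leaving out each library in turn gave 2 to 17 calls: 17 without SA:ANH-KDM5Ci 3, 9 without SA:ANH-KDM5Ci 1, and 4 without SA:ANH-vehicle 1 or SA:ANH-vehicle 3. Hbb-b1 was called in 20 of 20 alternatives and Hbb-bs in 19 of 20, with an adjusted p of 0.0534 when NS 1 and SA:ANH-vehicle 1 were both left out. With each library left out in turn, list medians ran from -0.29 to -0.19 for sterol synthesis, from -0.069 to -0.014 for sterol sensing and uptake, from 0.022 to 0.076 for the core clock, from 0.091 to 0.12 for endoplasmic reticulum chaperones, from 0.083 to 0.098 for SR proteins and from 0.049 to 0.083 for neuronal splicing regulators. With NS 1 and SA:ANH-vehicle 1 both left out, medians were -0.18 for sterol synthesis, -0.078 for sterol sensing and uptake, 0.093 for TRiC, 0.11 for SR proteins and 0.042 for neuronal splicing regulators, which was 0.072 without TMM. Of 640 list medians recomputed, 31 moved by more than the spread between replicates, the immediate early gene median among them. The cause of these shifts was not tested.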

Other observations

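A few genes of low level were high in only some stressed libraries, and they were picked out after their values were seen. Lcn2, lipocalin 2, an acute-phase protein, stood at 0.0565, 0.0557 and 0.401 CPM in NS 1 to 3 and at 6.07, 2.52 and 0.324 CPM in SA:ANH-vehicle 1 to 3. The neutrophil genes S100a8 and S100a9 stood at 0.0848, 0.167 and 0.703 CPM against 1.69, 1.06 and 0.441 CPM, and at 0.424, 0.557 and 1.57 CPM against 3.52, 2.58 and 0.971 CPM. In all 3 genes SA:ANH-vehicle 1 was highest, SA:ANH-vehicle 3 lay within the NS range, and no test passed after adjustment with edgeR.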
